A study of Mus musculus with 12 samples.

Results

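The collagens and fibroblast matrix genes described here are 36 genes of the extracellular matrix, listed by symbol, of which 33 were measured in 12 neuroblastoma tumors from mice. Col12a1, Fbn1 and Loxl2 were not analysed here. Each of the 33 had 1 named probe set among the 22206 on the array, whose named probe sets cover 19505 genes. No member lay in the lowest 25% of probe sets by mean signal over the 12 arrays, which ended at a log2 signal of 3.55. The control means of Col5a1 (3.39), Col8a1 (3.30) and Col15a1 (3.41) were below that limit.

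The tumors grew in mice of the inbred A/J strain inoculated with cells of neuroblastoma, a tumor of the sympathetic nervous lineage; the labels name no cell line, genotype, age or sex. The control group was 3 untreated tumors. The other groups were 3 tumors each treated with high-intensity focused ultrasound (HIFU), which the series uses to break up tissue mechanically, and labelled 24 h, 48 h and 72 h. Taking these times as hours from HIFU to sampling is an assumption. RNA of whole frozen tumor tissue was measured on Affymetrix Mouse Clariom S arrays, 1 array per sample. The labels do not say whether samples of a group came from separate animals, and p-values therefore reflect the spread of these samples alone, which may be technical. In bulk tissue, more cells of a type and more RNA per cell cannot be told apart.

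Fibroblasts and related stromal cells secrete most of the matrix of a tissue. Fibrillar collagens I, III and V assemble into fibrils, whose surface carries collagen VI, collagen XIV and small leucine-rich proteoglycans. Basement membrane collagens form sheets under endothelium and around muscle fibers and nerves. Matricellular proteins such as periostin and tenascin-C have signalling rather than structural roles and are known for their induction in injured tissue. Lysyl oxidases crosslink collagen and elastin.

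The deposited values are log2 signals per probe set, from 1.75 to 19.93, with array medians between 5.43 and 5.68. Correlations between arrays over all probe sets ran from 0.915 to 0.993, and 43.6% of the variance lay on principal component 1. Arrays give no read depth, and 3 arrays per group limit the precision. All 13 measured neuroblastoma markers lay above the lowest 25% of signals, and the median of their differences from the control mean ran from -1.32 on the second 72 h array to 1.18 on the third 48 h array.

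Most members had higher signals in HIFU tumors, by a median log2 difference from control of 1.24 at 24 h, 1.55 at 48 h and 2.04 at 72 h. The median over all probe sets was 0.00, 0.01 and -0.06. A higher mean than control was found for 27, 27 and 28 of the 33 members. The sizes were largest among the fibrillar collagens, the matricellular proteins and the proteoglycans, and smaller among basement membrane collagens. Col18a1, Fn1, Fbln1, Fbln2 and Pcolce had lower means at all 3 times, and Fmod at 24 h and 48 h.

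No single member passed the threshold. With limma, 0 of 33 members reached an adjusted p of 0.05 at 24 h, where 0.054% of all probe sets did. The count was also 0 at 48 h (0.0045% of all probe sets), at 72 h (0.00901%), for the 3 HIFU groups together (0.018%) and in the moderated F test over the 3 times (0.00901%). At an unadjusted p under 0.05 there were 11 members at 24 h against 9.84% of all probe sets, and 9 of them were higher against 3.98%. There were 16 at 48 h against 13.3%, 13 of them higher against 5.3%. There were 20 at 72 h against 11.2%, 18 of them higher against 5.85%. For the HIFU groups together there were 25 against 14.6%, 22 of them higher against 6.01%, and in the F test 10 against 9.34%. Fits that weighted arrays by their fitted quality called 10 members at 24 h (5.03% of all probe sets), 2 at 48 h (4.25%), 14 at 72 h (8.31%) and 27 for the HIFU groups together (17.1%). Without the third control array, 1 member was called at 24 h (1.14% of all probe sets), 2 at 48 h (1.41%), 1 at 72 h (0.874%) and 2 for the HIFU groups together (1.79%), with Col18a1 among them each time. Without the first or the second control array, 0 members and at most 1 of 22206 probe sets were called in these comparisons.

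Arrays of a group differed widely. All 3 HIFU arrays lay above all 3 controls for 3 of 33 members at 24 h, where this held for 6.84% of all probe sets, so that share of members was near the background. At 48 h it held for 18 members against 10.3% of probe sets, and at 72 h for 20 members against 8.99%. All 9 HIFU arrays lay above all controls for Bgn, Mfap5 and Dpep1, 3 members against 1.76% of probe sets. Without the third control array the counts above all controls were 18 at 24 h against 14.8%, 23 at 48 h against 17.9%, 25 at 72 h against 15.5% and 17 for all HIFU arrays against 6.02%. Without the second 24 h array, the count above all controls at 24 h was 26 against 18% of probe sets, and that for all HIFU arrays was 16 against 3.08%. On that 24 h array the median difference of the 33 members from the control mean was 0.08, and on the third control array it was 0.51, against -0.19 and -0.30 on the other controls.

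Fewer members lay below the controls. All HIFU arrays of a time lay below all controls for 2 members at 24 h (7.68% of probe sets), 2 at 48 h (11.7%) and 1 at 72 h (10.1%), and all 9 for 1 member (1.65%). Without the third control array there were 6 at 24 h (16.1%), 6 at 48 h (19.8%), 5 at 72 h (20.2%) and 5 over all 9 (7.78%), shares of the 33 members near the background at the single times. Without the second 48 h array there were 4 at 48 h (16.5%), and without the third 72 h array 2 at 72 h (15.5%) and 2 over all HIFU arrays (2.02%).

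**Figure D1:**
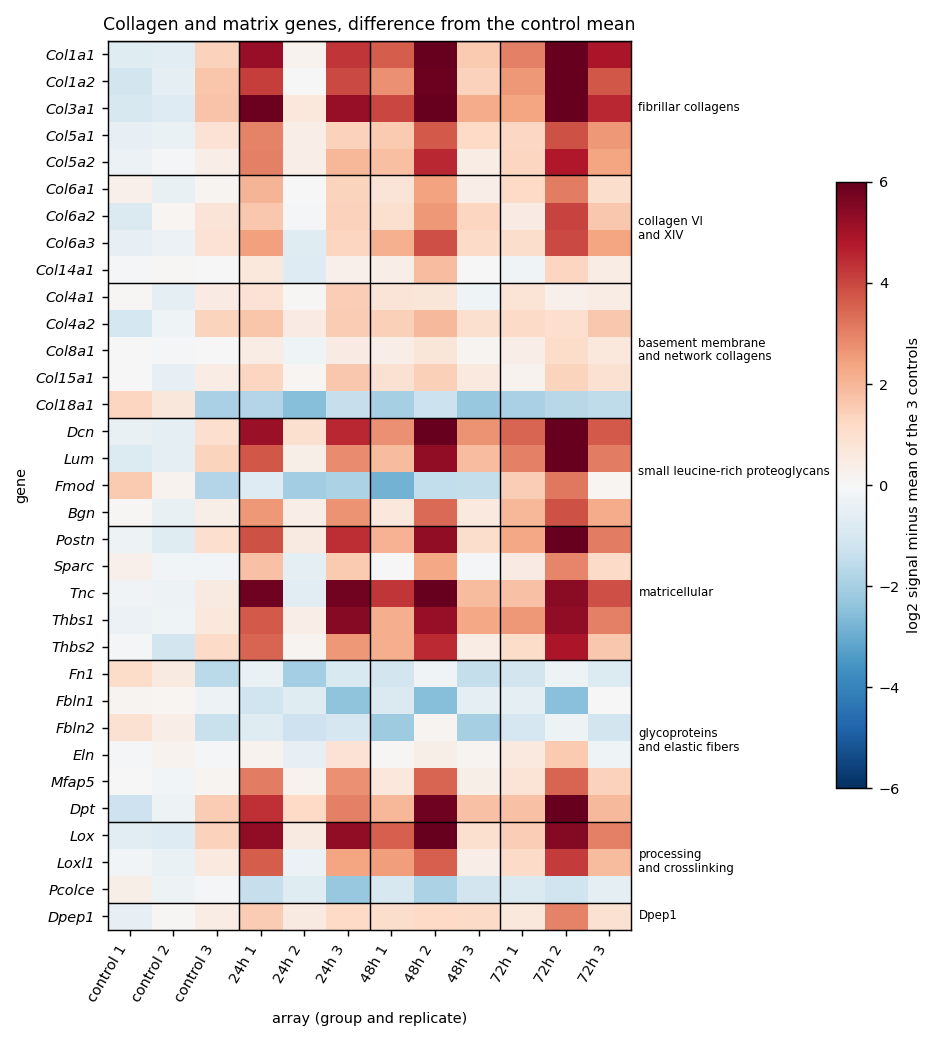
Each cell is the log2 signal of a gene on an array minus the mean of the 3 control arrays, with genes in rows by role and the 12 arrays in columns by group and replicate. Red is higher and blue lower than the control mean, and values beyond the scale take its end shade. The second 24 h column is pale in most rows, while the second 48 h and second 72 h columns are the darkest red; Col18a1, Fn1, Fbln1, Fbln2 and Pcolce are mostly blue on the HIFU arrays.

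The 5 fibrillar collagens had higher means at every time, with median log2 differences of 2.71 at 24 h, 3.35 at 48 h and 4.24 at 72 h. At an unadjusted p under 0.05 there were 2, 4 and 5 of them, against 9.84%, 13.3% and 11.2% of all probe sets. Col1a1 and Col1a2 encode the chains of collagen I, the main protein of scar and tendon. The log2 signal of Col1a1 was 6.86, 6.98 and 8.97 in controls, 12.81, 7.81 and 11.89 at 24 h, 11.23, 14.12 and 9.17 at 48 h, and 10.62, 14.39 and 12.52 at 72 h. The highest control lay above 1 HIFU array, the second at 24 h, and below the other 8. The log2 difference from control was 3.23 ± 1.47 (SE) at 24 h (limma adjusted p = 0.507), 3.90 ± 1.47 at 48 h (adjusted p = 0.305) and 4.91 ± 1.47 at 72 h (adjusted p = 0.309). The last is a 30.0-fold difference, with a 95% interval of 1.68 to 8.13 on the log2 scale. Over the HIFU groups together it was 4.01 ± 1.20 (adjusted p = 0.19), with 9 of 9 arrays above the control mean.

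Col3a1 encodes collagen III, found with collagen I in early scar and in vessel walls. Its signal was 8.33, 8.50 and 10.98 in controls, 15.17, 9.88 and 14.49 at 24 h, 13.28, 16.66 and 11.48 at 48 h, and 11.65, 16.35 and 13.80 at 72 h. Again the highest control lay above the second 24 h array alone. The differences were 3.91 ± 1.65, 4.54 ± 1.65 and 4.66 ± 1.65, or 15.0-fold, 23.2-fold and 25.3-fold. Col1a2 differed by 2.71, 3.35 and 4.24, and control replicate 3, at 10.37, lay above 2 HIFU arrays. Col5a1 and Col5a2, chains of the collagen V that nucleates fibrils, differed by 1.58 and 1.82 at 24 h and by 2.54 and 2.82 at 72 h. The smallest adjusted p of these genes at a single time was 0.297, for Col3a1 at 48 h.

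The 5 fibrillar genes tracked one another array by array. Over the deviations of the 12 arrays from their group means, each had a Pearson correlation of 0.948 to 0.993 with the mean of the other 4. These points share the same arrays and the same normalization, and the values are a description. Col1a1 and Col1a2, on chromosomes 11 and 6, correlated at 0.981, and Col3a1 and Col5a2, neighbours on chromosome 1, at 0.941.

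Promoter windows from RefSeq (GRCm38.p6, 250 bases before to 50 after a start site) were found for 22 of the 33 members, 27 windows in all. The windows of Col1a2 (chr6:4505368-4505667, plus strand) and Col3a1 (chr1:45311288-45311587, plus strand) are shown because both genes had among the largest differences. Those of Col4a1 (chr8:11312777-11313076, minus strand) and Col4a2 (chr8:11312555-11312854, plus strand) are shown because these genes start head to head and their windows share 78 bases. Capitals mark the letters CCAAT, the letters TATAAA and the letters GGGCGG on either strand; on the opposite strand CCAAT reads ATTGG and GGGCGG reads CCGCCC.
Col1a2: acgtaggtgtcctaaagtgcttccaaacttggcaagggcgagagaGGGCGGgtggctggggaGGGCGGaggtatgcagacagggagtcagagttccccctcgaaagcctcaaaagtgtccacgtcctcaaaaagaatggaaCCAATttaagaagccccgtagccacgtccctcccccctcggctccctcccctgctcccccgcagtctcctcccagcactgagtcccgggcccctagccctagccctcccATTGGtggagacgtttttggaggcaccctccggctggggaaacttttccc
Col3a1: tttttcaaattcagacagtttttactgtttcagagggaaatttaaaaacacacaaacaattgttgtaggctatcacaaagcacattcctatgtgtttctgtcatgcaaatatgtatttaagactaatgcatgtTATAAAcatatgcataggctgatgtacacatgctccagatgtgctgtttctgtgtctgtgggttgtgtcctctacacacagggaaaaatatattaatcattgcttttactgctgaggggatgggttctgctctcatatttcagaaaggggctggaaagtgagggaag
Col4a1: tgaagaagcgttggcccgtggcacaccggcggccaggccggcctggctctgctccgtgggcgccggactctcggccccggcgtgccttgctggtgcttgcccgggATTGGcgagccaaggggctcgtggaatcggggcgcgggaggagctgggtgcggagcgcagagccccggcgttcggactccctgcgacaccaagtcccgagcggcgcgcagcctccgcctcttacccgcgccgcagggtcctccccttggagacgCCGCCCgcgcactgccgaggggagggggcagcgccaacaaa
Col4a2: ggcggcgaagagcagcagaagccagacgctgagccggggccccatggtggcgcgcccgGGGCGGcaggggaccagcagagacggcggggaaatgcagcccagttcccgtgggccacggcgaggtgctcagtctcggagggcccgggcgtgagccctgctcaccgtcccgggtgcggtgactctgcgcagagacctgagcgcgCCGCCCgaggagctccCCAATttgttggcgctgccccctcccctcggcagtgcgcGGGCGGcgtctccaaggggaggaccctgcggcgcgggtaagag
A CCAAT was in 7 of the 27 member windows (25.9%), against 37.4% of all 32851 windows of 300 bases. TATAAA was in 6 (22.2%) against 13.6%, and GGGCGG in 14 (51.9%) against 35.7%. The Col1a2 window held CCAAT at 109 bases before the start, its reverse at the start itself, and 2 GGGCGG, and the Col3a1 window held a TATAAA at 117 bases before the start and neither of the other motifs. These are letter matches and not measured sites.

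Collagen VI forms beaded filaments around cells and fibrils, and collagen XIV sits on the fibril surface. Their 4 measured genes had median differences of 0.99, 1.41 and 1.90. Col6a3, the largest chain, had signals of 6.01, 6.12 and 7.34 in controls, 8.97, 5.77 and 7.76 at 24 h, 8.60, 10.34 and 7.63 at 48 h, and 7.53, 10.44 and 8.87 at 72 h. Its second 24 h array lay below all controls and the other 8 HIFU arrays above them. Its difference was 1.01 ± 0.93 at 24 h, 2.37 ± 0.93 at 48 h (adjusted p = 0.319) and 2.46 ± 0.93 at 72 h (adjusted p = 0.369). Col6a1 and Col6a2 differed by 1.76 and 2.04 at 72 h. Col14a1 differed by 0.05, 0.74 and 0.50, the smallest values of the 4, and at 24 h the sign turned to -0.058 with quantile normalization and -0.013 with median centring.

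The 5 genes of basement membrane and related network collagens had median differences of 0.81 at 24 h, 0.42 at 48 h and 0.70 at 72 h. Col4a1 and Col4a2 encode the chains of the collagen IV network found in nearly all basement membranes. The signal of Col4a2 was 6.03, 6.84 and 8.42 in controls, 8.78, 7.60 and 8.62 at 24 h, 8.54, 9.05 and 8.08 at 48 h, and 8.26, 8.10 and 8.70 at 72 h. The third control lay within the HIFU range, and the other 2 controls lay below all 9 HIFU arrays. The differences were 1.24 ± 0.54, 1.46 ± 0.54 and 1.26 ± 0.54, with adjusted p-values of 0.492, 0.298 and 0.415. Without the third control, Col4a2 passed at 48 h, by 2.12 ± 0.43 (adjusted p = 0.0436). Col4a2 did not pass at 48 h without the first or the second control.

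Col4a1 was less different, by 0.81 ± 0.41, 0.41 ± 0.41 and 0.52 ± 0.41, with controls of 5.46, 4.82 and 5.91 inside the HIFU range of 5.15 to 6.88 in 2 of 3 cases. Col4a1 and Col4a2, whose promoter windows share 78 bases, correlated at 0.602 within groups. The neighbours Col6a1 and Col6a2 correlated at 0.802, and Dcn and Lum at 0.981. The differences between these correlations were not tested. Col15a1, a collagen of the zone next to the basement membrane of vessels and muscle, differed by 1.01, 0.97 and 0.82. Col8a1, a short-chain collagen of vessels, differed by 0.25, 0.42 and 0.70, and its 72 h arrays, at 3.70, 4.39 and 3.91, lay above its controls of 3.33, 3.24 and 3.32.

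Col18a1, the source of the endostatin fragment, had lower means in HIFU tumors. Its signal was 11.99, 11.37 and 8.76 in controls, 8.97, 8.15 and 9.31 at 24 h, 8.70, 9.42 and 8.44 at 48 h, and 8.76, 9.03 and 9.20 at 72 h. The first and second controls were far above all 9 HIFU arrays, and the third lay among them. The differences were -1.90 ± 0.67 at 24 h (adjusted p = 0.407), -1.85 ± 0.67 at 48 h (adjusted p = 0.294) and -1.71 ± 0.67 at 72 h (adjusted p = 0.38). Without the third control they were -2.87 ± 0.40 (adjusted p = 0.00774), -2.83 ± 0.40 (adjusted p = 0.00777) and -2.68 ± 0.40 (adjusted p = 0.012). With array weights Col18a1 also passed at each time (adjusted p of 0.0361, 0.0358 and 0.0187). Without the first or the second control, Col18a1 did not pass at any time.

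Set beside each other by array, the fibrillar collagens differed from control by more than the basement membrane collagens on each of the 9 HIFU arrays. The median of the 5 fibrillar genes minus that of the 5 basement membrane genes was 3.27, 0.30 and 2.50 at 24 h, 1.99, 5.17 and 1.24 at 48 h, and 1.98, 5.40 and 3.10 at 72 h. In controls it was -0.78, -0.33 and 0.91. The third control therefore lay above the second 24 h array and below the other 8 HIFU arrays. On the HIFU arrays the matricellular median ran from 0.45 above the fibrillar one on the third 24 h array to 1.08 below it on the second 72 h array. Col8a1 and Col15a1 of the basement membrane group and Col5a1 of the fibrillar group had control means below the low-signal limit of 3.55. The part of low signal in this contrast was not tested. No test was run between role groups, because the lists were chosen with results of these data known.

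**Figure D2:**
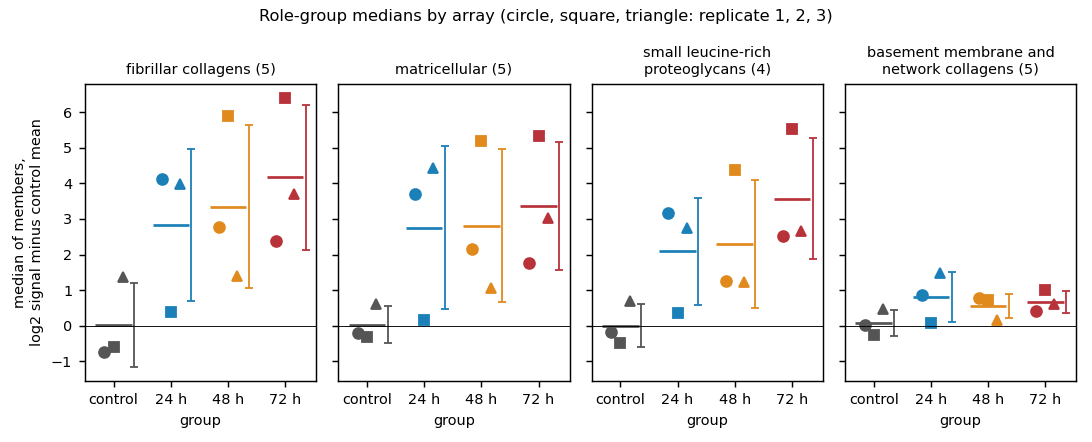
Each point is an array, placed at the median log2 difference of a role group from the control mean, with the group on the horizontal axis. Bars to the right of the points are the mean ± SD (n = 3), the horizontal line is the mean, and the number of genes stands in each title. Fibrillar medians reach 5.88 on the second 48 h array and 6.40 on the second 72 h array, while basement membrane medians stay between 0.08 and 1.48 on the HIFU arrays.

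Leaving out single arrays kept these medians above 0 but moved their size. At 48 h the fibrillar median was 2.08 and the matricellular median 1.57 without the second array. The basement membrane median ran from 0.27 without the second 48 h array to 0.74 without the third, and at 24 h it was 0.47 without the third 24 h array. The median of all members was 1.90 at 24 h without the third control, and 1.35 at 72 h without the second 72 h array.

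The 5 matricellular genes had median differences of 2.93, 2.83 and 3.65. Tenascin-C, encoded by Tnc, is low in most adult tissue and appears in healing wounds and tumor stroma. Its signal was 6.99, 6.87 and 7.73 in controls, 13.02, 6.53 and 13.00 at 24 h, 11.49, 15.08 and 9.11 at 48 h, and 8.97, 12.62 and 11.05 at 72 h. The second 24 h array lay below all controls and the other 8 above all of them. The differences were 3.65 ± 1.77 at 24 h, 4.70 ± 1.77 at 48 h (25.9-fold, adjusted p = 0.305) and 3.68 ± 1.77 at 72 h. At 24 h the 95% interval ran from -0.24 to 7.54.

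Postn, which encodes periostin, a binding partner of collagen I, had signals of 9.41, 8.99 and 10.69 in controls, 13.50, 10.25 and 14.13 at 24 h, 11.78, 15.04 and 10.75 at 48 h, and 12.04, 15.67 and 12.75 at 72 h. The differences were 2.93 ± 1.28, 2.83 ± 1.28 and 3.79 ± 1.28 (adjusted p of 0.497, 0.373 and 0.339). Thbs1, whose product thrombospondin-1 inhibits angiogenesis and can activate latent TGF-beta, had signals of 8.22, 8.31 and 9.20 in controls, 12.27, 8.98 and 14.02 at 24 h, 10.76, 13.78 and 10.91 at 48 h, and 11.18, 13.90 and 11.61 at 72 h. Only the second 24 h array overlapped the controls for both genes. Thbs1 differed by 3.18 ± 1.19, 3.24 ± 1.19 and 3.65 ± 1.19, with an adjusted p of 0.176 for the HIFU groups together.

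Thbs2 differed by 2.08, 2.36 and 2.53, with the third control, at 8.19, above 3 of the 9 HIFU arrays. Sparc, encoding a collagen-binding glycoprotein also known as osteonectin, differed least, by 0.93 ± 0.80, 0.76 ± 0.80 and 1.52 ± 0.80. At 48 h its difference rested on the second array, at 17.89 against 15.58 and 15.48 on the others, and was -0.023 without it.

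Decorin, lumican, fibromodulin and biglycan are small leucine-rich proteoglycans that bind collagen and regulate fibril diameter. Dcn, encoding decorin, had signals of 9.77, 9.70 and 11.23 in controls, 15.41, 11.18 and 14.76 at 24 h, 12.99, 16.50 and 12.91 at 48 h, and 13.71, 17.45 and 13.92 at 72 h. The second 24 h array lay 0.05 below the highest control and the other 8 HIFU arrays above it. The differences were 3.55 ± 1.32 at 24 h (adjusted p = 0.433), 3.90 ± 1.32 at 48 h (adjusted p = 0.268) and 4.79 ± 1.32 at 72 h (27.7-fold, adjusted p = 0.29). Over the HIFU groups together Dcn differed by 4.08 ± 1.08 (adjusted p = 0.149). Its neighbour Lum, encoding lumican, differed by 2.30, 3.02 and 4.44, the last 21.7-fold.

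Bgn, encoding biglycan, had signals of 13.43, 12.89 and 13.71 in controls, 15.93, 13.72 and 16.02 at 24 h, 13.97, 16.75 and 13.95 at 48 h, and 15.34, 17.18 and 15.59 at 72 h. All 9 HIFU arrays lay above all controls, at 24 h by a margin of 0.01 on the second array. The differences were 1.88 ± 0.82, 1.55 ± 0.82 and 2.69 ± 0.82 (adjusted p of 0.493, 0.433 and 0.309).

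Fmod, encoding fibromodulin, had means that followed a different course. Its signal was 9.37, 8.04 and 6.04 in controls, 7.02, 5.71 and 5.92 at 24 h, 4.96, 6.33 and 6.41 at 48 h, and 9.29, 10.98 and 7.95 at 72 h. All 72 h arrays lay above all 24 h and 48 h arrays, and the controls spanned both ranges in part. Fmod was 3.51 ± 0.87 higher at 72 h than at 48 h (unadjusted p = 0.00191, adjusted p = 0.735) and 3.19 ± 0.87 higher than at 24 h (unadjusted p = 0.00362, adjusted p = 0.7) in limma. Neither passed the threshold. Against control it differed by -1.60, -1.92 and 1.59, and its p in limma's moderated F test was the smallest of the members (adjusted p = 0.395).

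Fmod was the 1 member of 33 with an unadjusted p under 0.05 between 48 h and 72 h (6.26% of all probe sets). The same held between 24 h and 72 h (5.57%). In both comparisons the share of members was below that of all probe sets, so these counts do not set Fmod apart from the background. Between 24 h and 48 h there were 0 members (3.89% of all probe sets). No member and no other probe set reached an adjusted p of 0.05 between times. Median differences of the 5 fibrillar genes between times were 0.63 at 48 h against 24 h and 0.57 at 72 h against 48 h. These are medians of the differences per gene, and not differences between the medians against control. In each comparison 5 of 5 genes were higher at the later time. For Col1a1 the difference between 72 h and 24 h was 1.67 ± 1.47, with a 95% interval of -1.55 to 4.90.

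Glycoproteins and elastic fiber genes were divided. Fn1 encodes fibronectin, a cell adhesion protein laid down early in wounds. Its signal was 16.97, 16.41 and 14.29 in controls, 15.48, 13.83 and 14.97 at 24 h, 14.78, 15.69 and 14.44 at 48 h, and 14.80, 15.57 and 15.07 at 72 h. The first and second controls lay above all HIFU arrays and the third below 8 of them. The differences were -1.13 ± 0.64, -0.92 ± 0.64 and -0.74 ± 0.64 (adjusted p of 0.592, 0.557 and 0.728). Fbln2, encoding fibulin-2 of elastic fibers and basement membranes, had controls of 12.32, 11.80 and 10.03, the first and second again above all HIFU arrays, and differences of -0.99, -1.33 and -0.82.

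Fbln1, encoding fibulin-1, had signals of 13.42, 13.38 and 12.97 in controls, 12.04, 12.52 and 10.84 at 24 h, 12.37, 10.69 and 12.68 at 48 h, and 12.74, 10.76 and 13.26 at 72 h. Of the 9 HIFU arrays, 8 lay below all controls, and the lowest were the second 48 h and second 72 h arrays, which were the highest for Col1a1. The differences were -1.46 ± 0.68 at 24 h and -1.34 ± 0.68 at 48 h (adjusted p of 0.522 and 0.417), and -1.27 ± 0.55 over the HIFU groups together (adjusted p = 0.326). Eln, encoding elastin, differed by 0.18, 0.21 and 0.63, with an adjusted p of 0.64 or more, and by -0.16 at 24 h without the third 24 h array.

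Mfap5, a microfibril protein gene, had signals of 6.91, 6.71 and 7.07 in controls, 9.98, 7.12 and 9.65 at 24 h, 7.54, 10.39 and 7.27 at 48 h, and 7.73, 10.39 and 8.26 at 72 h. All 9 HIFU arrays were above all controls, on the second 24 h array by 0.05. The differences were 2.02 ± 0.95, 1.50 ± 0.95 and 1.90 ± 0.95 (adjusted p of 0.525, 0.516 and 0.486). Dpt, encoding dermatopontin, a dermal matrix protein, differed by 2.87, 3.20 and 3.56. Its controls ranged from 5.29 to 8.09, and its highest HIFU signals were 12.40 on the second 48 h and 13.51 on the second 72 h array.

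Among genes for processing and crosslinking, Lox and Loxl1 were higher and Pcolce lower. Lox encodes lysyl oxidase. Its signal was 8.52, 8.36 and 10.53 in controls, 14.48, 9.68 and 14.47 at 24 h, 12.74, 15.66 and 10.10 at 48 h, and 10.62, 14.64 and 12.16 at 72 h. The third control lay above 2 HIFU arrays. The differences were 3.74 ± 1.58, 3.70 ± 1.58 and 3.34 ± 1.58 (adjusted p of 0.48, 0.35 and 0.459). Loxl1, a lysyl oxidase acting on elastin, differed by 1.88, 2.17 and 2.41.

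Pcolce encodes the enhancer of the proteinase that trims the C-terminal propeptide of procollagen. Its signal was 13.39, 12.72 and 12.94 in controls, 11.62, 12.28 and 10.76 at 24 h, 12.05, 11.13 and 11.93 at 48 h, and 12.17, 11.83 and 12.46 at 72 h. All 9 HIFU arrays lay below all controls, the 1 member of 33 for which this held, against 1.65% of all probe sets. The differences were -1.46 ± 0.39 (adjusted p = 0.287), -1.31 ± 0.39 (adjusted p = 0.228) and -0.86 ± 0.39 (adjusted p = 0.438). Over the HIFU groups together Pcolce was -1.21 ± 0.32 (adjusted p = 0.148), 2.32-fold lower, and with array weights -0.98 ± 0.21 (adjusted p = 0.0106).

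**Figure D3:**
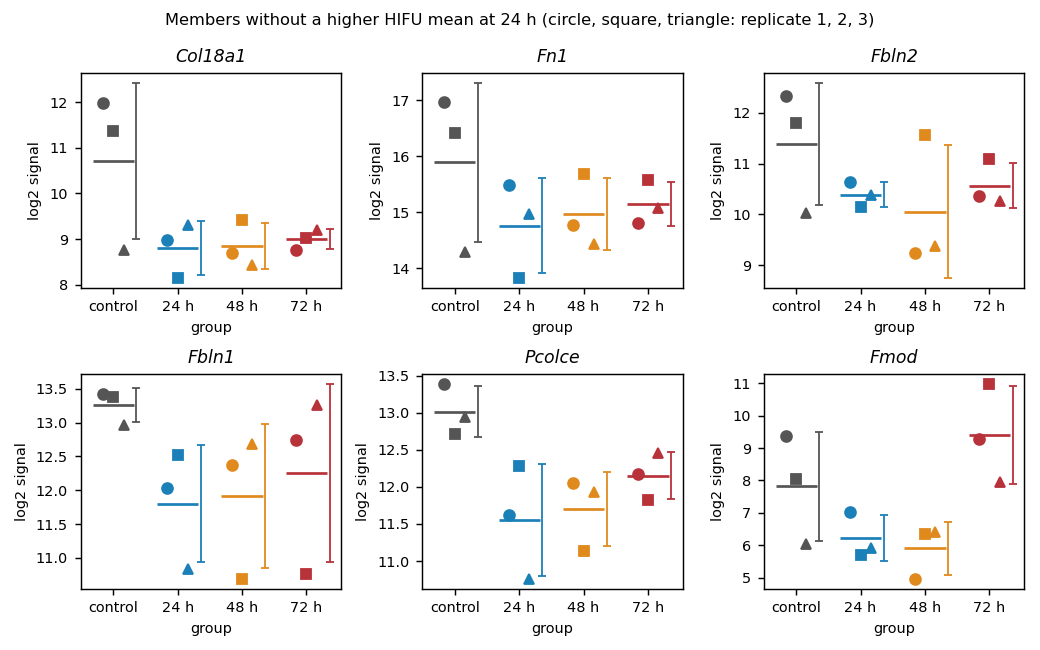
Each panel shows the log2 signal of a gene on each of the 12 arrays by group, with the group mean (line) and mean ± SD (bar, n = 3) beside the points. For Pcolce all HIFU arrays lie below the controls; for Col18a1, Fn1 and Fbln2 the third control, a triangle, lies among the HIFU arrays; Fmod is lowest at 24 h and 48 h.

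Dpep1 encodes a membrane dipeptidase. Its signal was 3.66, 4.20 and 4.57 in controls, 5.69, 4.68 and 5.36 at 24 h, 5.18, 5.36 and 5.29 at 48 h, and 4.79, 7.11 and 5.07 at 72 h. All 9 HIFU arrays lay above all controls, and the differences were 1.10 ± 0.52, 1.13 ± 0.52 and 1.51 ± 0.52 (adjusted p of 0.53, 0.381 and 0.344).

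Members differed in how closely they followed the fibrillar collagens from array to array. Over deviations from group means on the 12 arrays, the correlation with the mean of the fibrillar genes was 0.879 to 0.99 for collagens VI and XIV and 0.875 to 0.964 for the matricellular genes. Lox was at 0.983, Dcn at 0.959, Mfap5 at 0.949 and Dpt at 0.916. Basement membrane genes spread from 0.0843 for Col18a1 and 0.496 for Col4a1 to 0.926 for Col8a1. Fmod was at 0.161, Fn1 at 0.356 and Fbln2 at 0.376, while Fbln1 was at -0.781 and Pcolce at -0.672. The points share arrays, normalization and the cell makeup of each tumor, and no p is given.

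**Figure D4:**
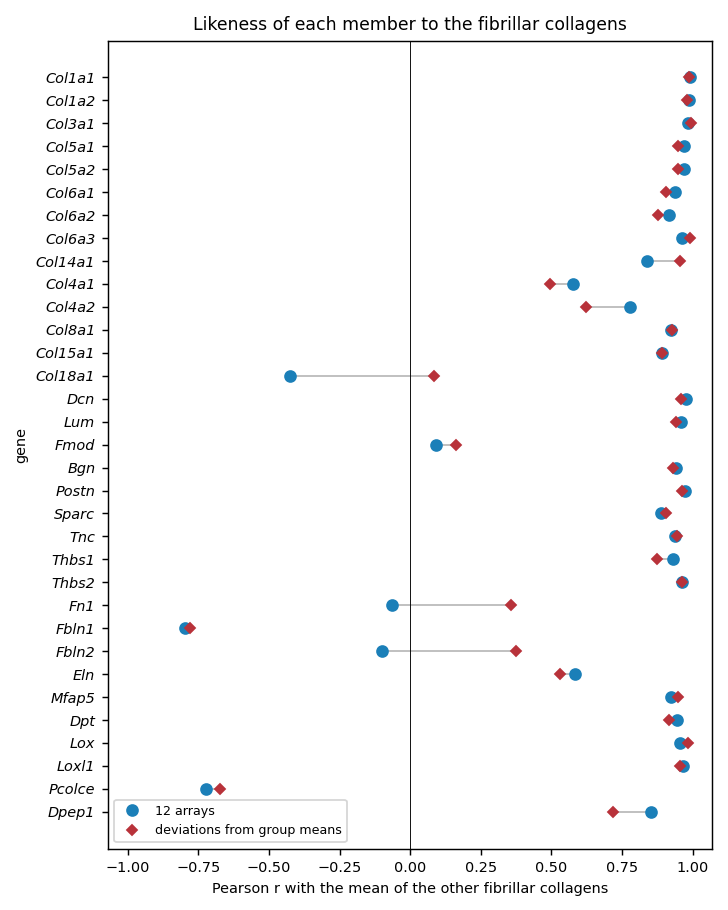
For each gene, the horizontal axis gives Pearson's r with the mean of the fibrillar collagens other than itself, over the 12 arrays (circle) and over deviations from group means (diamond). Most genes lie above 0.85 on both; Fbln1 and Pcolce lie below -0.6, and Col18a1 moves from -0.42 over the arrays to 0.08 within groups.

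Other genes of collagen production and of the matrix were also measured. Of 17 measured genes for collagen biosynthesis (prolyl and lysyl hydroxylases, chaperones and propeptidases), 0 passed in limma at any time. There were 2, 3 and 5 at an unadjusted p under 0.05, against 9.84%, 13.3% and 11.2% of all probe sets. The medians of the 17 genes were 0.09, 0.21 and 0.06. P4ha1, a catalytic subunit of the prolyl hydroxylase that stabilizes the collagen helix, had the smallest p of these in the F test. Its signal was 14.54, 14.24 and 12.88 in controls and 11.63 to 12.70 in HIFU tumors, below all controls on all 9 arrays. This held for 1 of the 17 genes, against 1.65% of all probe sets, and the third control lay closest to the HIFU range. P4ha1 differed by -1.44 ± 0.43, -1.69 ± 0.43 and -1.65 ± 0.43 (adjusted p of 0.338, 0.206 and 0.279).

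Of 19 other collagens, 0 passed, and the medians were 0.22, 0.39 and 0.25. The unadjusted p was under 0.05 for 0, 4 and 4 of them, against 9.84%, 13.3% and 11.2% of all probe sets. Col5a3, the third collagen V chain, differed by 0.36 ± 0.47, 1.16 ± 0.47 (limma adjusted p = 0.331) and 0.52 ± 0.47. Its 48 h signals were 4.84, 6.55 and 4.48, against controls of 4.10, 3.65 and 4.63. Of 13 other basement membrane genes, 0 passed, with 3, 2 and 3 at an unadjusted p under 0.05, against the same shares. Their medians were 0.50, 0.30 and 0.38. Nid1, encoding nidogen-1, which links laminin to collagen IV, differed by 2.24 ± 0.99, 2.45 ± 0.99 and 2.67 ± 0.99.

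Matrix receptors had 0 of 12 past the threshold, and medians of -0.08, 0.26 and 0.56. The unadjusted p was under 0.05 for 1, 4 and 4 of them, against 9.84%, 13.3% and 11.2% of all probe sets. Itgb3, the beta-3 integrin subunit, was 2.99 ± 0.77 higher at 72 h (adjusted p = 0.275), and Ddr1, a collagen receptor kinase, differed by -1.53 ± 0.36 (adjusted p = 0.262). Of 19 genes of the TGF-beta pathway, a main inducer of collagen genes, 0 passed, and the medians were 0.09, 0.29 and 0.42. There were 2, 1 and 1 at an unadjusted p under 0.05, near or below the same shares of all probe sets. Tgfb1 differed by 0.81, 1.02 and 1.75 and Tgfb2 by -1.48, -1.62 and -1.13.

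Markers of skeletal muscle also had higher signals. All 18 measured had higher means at all 3 times, with medians of 3.20, 3.26 and 3.52, and 0 passed in limma. There were 13, 14 and 15 of the 18 markers at an unadjusted p under 0.05, against 9.84%, 13.3% and 11.2% of all probe sets. The log2 of the summed signal of the 18 markers was 16.75 to 20.30 in controls, 20.58 to 21.94 at 24 h, 20.88 to 21.42 at 48 h and 20.29 to 22.06 at 72 h. The third control had the highest muscle median of the controls, 2.18, as it had the highest fibrillar median, 1.37. Acta1, skeletal muscle actin, was at 16.32, 16.34 and 18.79 in controls and from 18.75 to 19.82 in HIFU tumors, and none of the 18 markers was in the lowest 25% of signals. The part of muscle tissue in the collagen differences was not tested.

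Fibroblast markers outside the member list were also measured. Of these 14 genes, 11 had higher means at 24 h, 11 at 48 h and 12 at 72 h, with medians of 0.20, 0.54 and 0.69. The unadjusted p was under 0.05 for 0, 1 and 4 of them, against 9.84%, 13.3% and 11.2% of all probe sets. Of the 14 genes, 0 passed the threshold and 3 were in the lowest 25% of signals. The log2 of the summed signal of the 14 genes was 10.39 to 10.85 in controls, 10.48 to 12.16 at 24 h, 11.13 to 12.54 at 48 h and 11.36 to 14.16 at 72 h. Cd34, found on fibroblasts and endothelium, differed by 1.59 ± 0.93, 2.07 ± 0.93 and 2.64 ± 0.93, Fap, encoding fibroblast activation protein, by 0.41, 1.24 and 1.98, and Prrx1 by 2.15, 2.46 and 2.83. Among 10 markers of myofibroblasts and pericytes the medians were 0.43, 0.30 and 0.38, with 7, 8 and 6 higher than control. Mcam differed by 1.39, 1.20 and 1.29 and Abcc9 by 1.79, 2.10 and 2.25. Acta2, smooth muscle actin, went the other way, by -1.39, -0.66 and -0.69.

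Endothelial markers had medians of 0.81, 0.62 and 0.70 with 12, 12 and 11 of 12 higher, and the log2 of their summed signal was 11.79 to 12.21 in controls, 11.85 to 13.97 at 24 h, 12.12 to 13.78 at 48 h and 12.17 to 13.87 at 72 h. One of the 12 was in the lowest 25% of signals. Macrophage markers had medians of 0.09, 0.73 and 1.94 with 6, 8 and 11 of 11 higher, and their log2 summed signal was 12.22 to 13.40 in controls, 12.93 to 15.96 at 24 h, 14.13 to 17.38 at 48 h and 15.22 to 18.82 at 72 h. None of the 11 was in the lowest 25%. On the second 24 h array the macrophage median was -1.64, the lowest of the 12 arrays, and on the second 72 h array 3.61, the highest. Their part in the collagen differences was not tested.

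**Figure D5:**
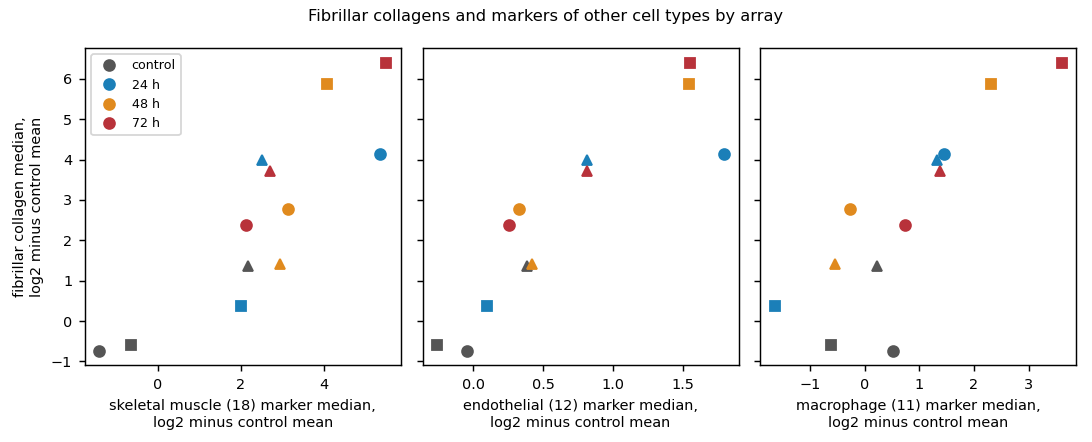
Each point is an array, with the fibrillar collagen median on the vertical axis and the median of skeletal muscle, endothelial or macrophage markers on the horizontal axis, all as log2 differences from the control mean. Colours are groups, and circle, square and triangle are replicates 1, 2 and 3. The second 72 h array (red square) is highest on the fibrillar axis at 6.40, and at 5.51 for muscle and 3.61 for macrophage markers.

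Fmod had higher signals at 72 h than at the earlier times, though neither difference passed the threshold. At 72 h, 8 of 10 markers of osteoblasts and osteocytes had higher means than control and 2 lower, with a median difference of 0.83. Of 8 tendon cell markers, 6 had higher and 2 lower means, with a median of 0.80 and 0 past the threshold in limma. The unadjusted p was under 0.05 for 4 of the 8, against 11.2% of all probe sets. Ibsp, bone sialoprotein, had signals of 2.79, 2.78 and 2.58 in controls and 7.14, 9.05 and 6.75 at 72 h. All of its controls lay below the low-signal limit of 3.55. Ibsp rose by 4.93 ± 0.59 (limma adjusted p = 0.0375), the 1 gene of 10 osteoblast and osteocyte markers past the threshold, against 0.00901% of all probe sets. Its adjusted p ranged from 0.00061 to 0.296 over the alternative fits, with 0.199 with the replicate block and 0.296 without the second control. Of these 10 markers 3 were in the lowest 25%, and the log2 of their summed signal was 7.10 to 7.54 in controls and 8.21 to 10.84 at 72 h. Comp, a cartilage and tendon matrix gene, was at 4.32, 4.40 and 3.46 in controls and 5.48, 7.86 and 5.68 at 72 h, a difference of 2.28 ± 0.53 (adjusted p = 0.259). Their part in the Fmod values was not tested.

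The other marker lists had 0 genes past the threshold in limma, and 0 to 4 per list and time at an unadjusted p under 0.05. For all probe sets the shares at that p were 9.84% at 24 h, 13.3% at 48 h and 11.2% at 72 h. Median differences at 24, 48 and 72 h were 0.60, 1.23 and 1.05 for 7 adipocyte markers and 0.005, 0.65 and 1.16 for 8 keratinocyte markers. They were -0.065, 0.13 and 0.36 for 8 chondrocyte markers, 0.365, -0.07 and 0.80 for 8 tendon cell markers, and -0.002, -0.06 and 0.07 for 6 Schwann cell markers. The 13 neuroblastoma markers had medians of -0.04, 0.21 and -0.08. Fabp4, a fatty acid binding protein of adipocytes and endothelium, differed by 3.81 ± 0.91 at 24 h (adjusted p = 0.242).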

How the data were processed

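Gene expression was measured in 12 mouse tumors, 3 per group, grouped by their titles. The authors deposited log2 signals per probe set. The log scale and base 2 were read from the values, so folds rest on that base. Transcriptome Analysis Console 4.0 is named per the submitters' processing notes. The summarization, normalization, filters and build were not given in the sources used here. Scaling between arrays makes each value relative to the other genes of its array.

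Platform annotation named 19572 of 22206 probe sets, all found in a RefSeq table, and 2634 were unnamed. One probe set per gene was used, that with the highest mean. limma 3.58.1 in R 4.3.3 fitted 1 mean per group to all 12 arrays (8 residual and 3.37 prior degrees of freedom). Tests were two-sided, with Benjamini-Hochberg adjustment over all probe sets and a threshold of 0.05. Errors are SE of differences, and intervals are 95%. Figures used Python 3.11.15 and matplotlib 3.10.9, and the fit was tested on simulated data.

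The members and gene lists were chosen with earlier results of these data known, so lists are described by counts and medians. All members are accounted for. Of other lists at most 4 genes are named, by the smallest p of the F test. Alternatives were a replicate block, array weights, quantile normalization, median centring, a filter on the lowest 25%, robust estimation with an intensity trend, fits of the compared groups only, averaged probe sets per gene, and omission of single arrays. Leave-one-out counts of non-overlapping arrays and the alternatives for Ibsp were chosen after seeing the data. Replicate numbers did not pair arrays: of 18 same-number pairs 4 had deviations correlated above 0.1 (range -0.608 to 0.625).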

Additional observations from a re-analysis of the deposited data

How the results depend on the processing

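The medians of all members and of the fibrillar, basement membrane and matricellular genes kept their sign in every fit run. With array weights, members past the threshold numbered 10 at 24 h, 2 at 48 h, 14 at 72 h, 27 for all HIFU groups and 11 in the F test, against 0 without weights. The weighted fit called 1118, 944, 1846, 3787 and 1488 of all 22206 probe sets in those comparisons. The cause of the higher counts was not tested. Leaving out arrays one at a time gave 0 to 1 members at 24 h, 0 to 2 at 48 h, 0 to 1 at 72 h, 0 to 2 for all HIFU groups, 0 to 1 in the F test and 0 between times, the higher values without control replicate 3. Members above all controls ranged from 3 to 26 at 24 h, 18 to 25 at 48 h, 20 to 25 at 72 h and 3 to 17 for all HIFU groups. For the highest counts the shares of all probe sets were 18%, 17%, 15.5% and 6.02%. The replicate block called 0 members in each comparison, changed no member's call and ended that of Ibsp (adjusted p = 0.199). Only the groups compared, trend and robust estimation, the low-signal filter, quantile normalization, median centring and the mean of probe sets also called 0. The F test could not be fitted on only the groups compared.

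Signs turned for 4 members, none of them past the threshold. Col14a1 at 24 h was -0.058 with quantile normalization, -0.013 with median centring and -0.25 to 0.473 leaving out arrays. Fmod over all HIFU groups, -0.64 with all arrays, ran from -1.53 to 0.13, Eln at 24 h from -0.16 to 0.523 and Sparc at 48 h, 0.76 with all arrays, from -0.023 to 1.18. With 3 arrays per group that differed widely, the 95% interval of Col1a1 at 24 h ran from 0.01 to 6.46, so the size of single differences is poorly known.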
